A study of Mus musculus with 24 samples.

Results

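RNA-seq counts of mouse embryonic fibroblasts (MEFs) were searched for genes that are nearly without reads in control cells and in cells lacking some of the H3K9 lysine methyltransferases (H3K9 KMTs), but have reads in both lines lacking all 6. A gene was taken if it had at most 2 counts in each of the 12 libraries of WT, E1, E1 S1S2 and E1E2 G9Gl and at least 8 counts in each of the 6 libraries of 6KO1 and 6KO2. Symbols starting with Zfp, Slfn, Pcdh, Hox, Hist or Cacna1 were left out, which removed 1 gene, Zfp987. The members were thus chosen by their raw counts in these 18 libraries, and 54 of the 47937 genes in the table were found. The low part alone was met by 24916 genes (52.0%), of which 14065 had no count in any of the 24 libraries.

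The study disrupted the 3 pairs of H3K9 KMT genes stepwise in 2 series of clones and sequenced stranded total RNA from 3 biological replicates per condition. All lines descend from 1 MEF clone with a floxed Eset1 (Setdb1) allele and a Cre recombinase that 4-hydroxytamoxifen (4-OHT) activates. WT is that clone without 4-OHT, and E1 is the same clone after 1 µM 4-OHT, which removes the floxed exons of Eset1. E1 S1S2 also lacks Suv39h1 and Suv39h2, and 6KO1 was made from that line by disrupting Eset2 (Setdb2), G9a (Ehmt2) and Glp (Ehmt1). In the other series, E2 is a clone with a disrupted Eset2 gene and without 4-OHT, E1E2 is the same clone after 4-OHT, E1E2 G9Gl also lacks G9a and Glp, and 6KO2 lacks Suv39h1 and Suv39h2 as well. Apart from WT and E2, all conditions received 4-OHT. Each genotype is 1 clone, so genotype and clone cannot be told apart, and cells that lack Suv39h1, Suv39h2, G9a and Glp but keep Eset1 were not measured here.

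Methylation of histone H3 at lysine 9 is a mark of silent chromatin, and the Suv39h, Eset and G9a/Glp enzymes place its different states at pericentric repeats, endogenous retroviruses and repressed genes. Genes that only the germ line, the early embryo or the sensory epithelium of the nose uses are among the known targets, as are large tandem gene families. Most of these genes have no known role in fibroblasts.

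The libraries held 24737307 to 37419816 counts, of which 19541909 to 31489070 fell on genes. A count of 0 in 1 library allows up to 3 counts, which is 0.0928 to 0.154 CPM (counts scaled to library size with edgeR's TMM factors), for counting error only. The 12 fibroblast markers were all counted, with a sum of 6868 to 8592 CPM in WT, 3897 to 4364 in 6KO1 and 5732 to 5864 in 6KO2. Eset1 RNA ranged from 58.4 to 63.7 CPM in WT and from 39.3 to 43.1 CPM in E1, but its ranges overlapped between E2 (40.2 to 55.2 CPM) and E1E2 (46.9 to 50.1 CPM), so these counts did not separate the libraries labelled E2 and E1E2. Only the floxed exons are deleted, so counts over the whole gene need not fall when the enzyme is lost. The other 5 genes carry frameshift mutations, which need not change the RNA level. Eset2 had at least 28.4 CPM in WT and at most 16.8 in 6KO1 and 12.4 in 6KO2. From WT to 6KO1 and 6KO2, mean CPM went from 110.1 to 33.1 and 62.9 for Suv39h1, from 128 to 50.9 and 86.2 for G9a and from 107 to 51.4 and 55.5 for Glp, while Suv39h2 stood at 39.5, 43.4 and 20.3. Replicate 2 of WT, E2, E1 S1S2 and E1E2, replicate 3 of E1 and replicate 1 of 6KO1 stood apart from the others of their condition, with a chi-square of the counts of up to 68.3 per gene between WT libraries, against 2.24 for the closest replicates. Leaving out any single library of the groups compared changed no count of calls below by over 1.5 times. Fewer cells that express a gene and less RNA in each cell cannot be told apart in these bulk samples.

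Treml4 was the example among the 54 genes that was known beforehand (ENSMUSG00000051682, chr17:48264295-48275360 of GRCm38, plus strand). It encodes an immunoglobulin-like receptor of dendritic cells and macrophages that enhances signalling by the RNA sensor Tlr7. Treml4 had 17, 14 and 12 counts in 6KO1 and 46, 30 and 33 counts in 6KO2. In the other 18 libraries a single count was found, in WT replicate 1. The gene with most reads was Cox7b2, which encodes a testis form of a subunit of cytochrome c oxidase (ENSMUSG00000049387, chr5:71442824-71548205, minus strand). Its counts were 766, 930 and 779 in 6KO1 and 201, 174 and 180 in 6KO2. None of the other 18 libraries had more than 2. These counts chose the genes, so they carry no test.

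**Figure D1:**
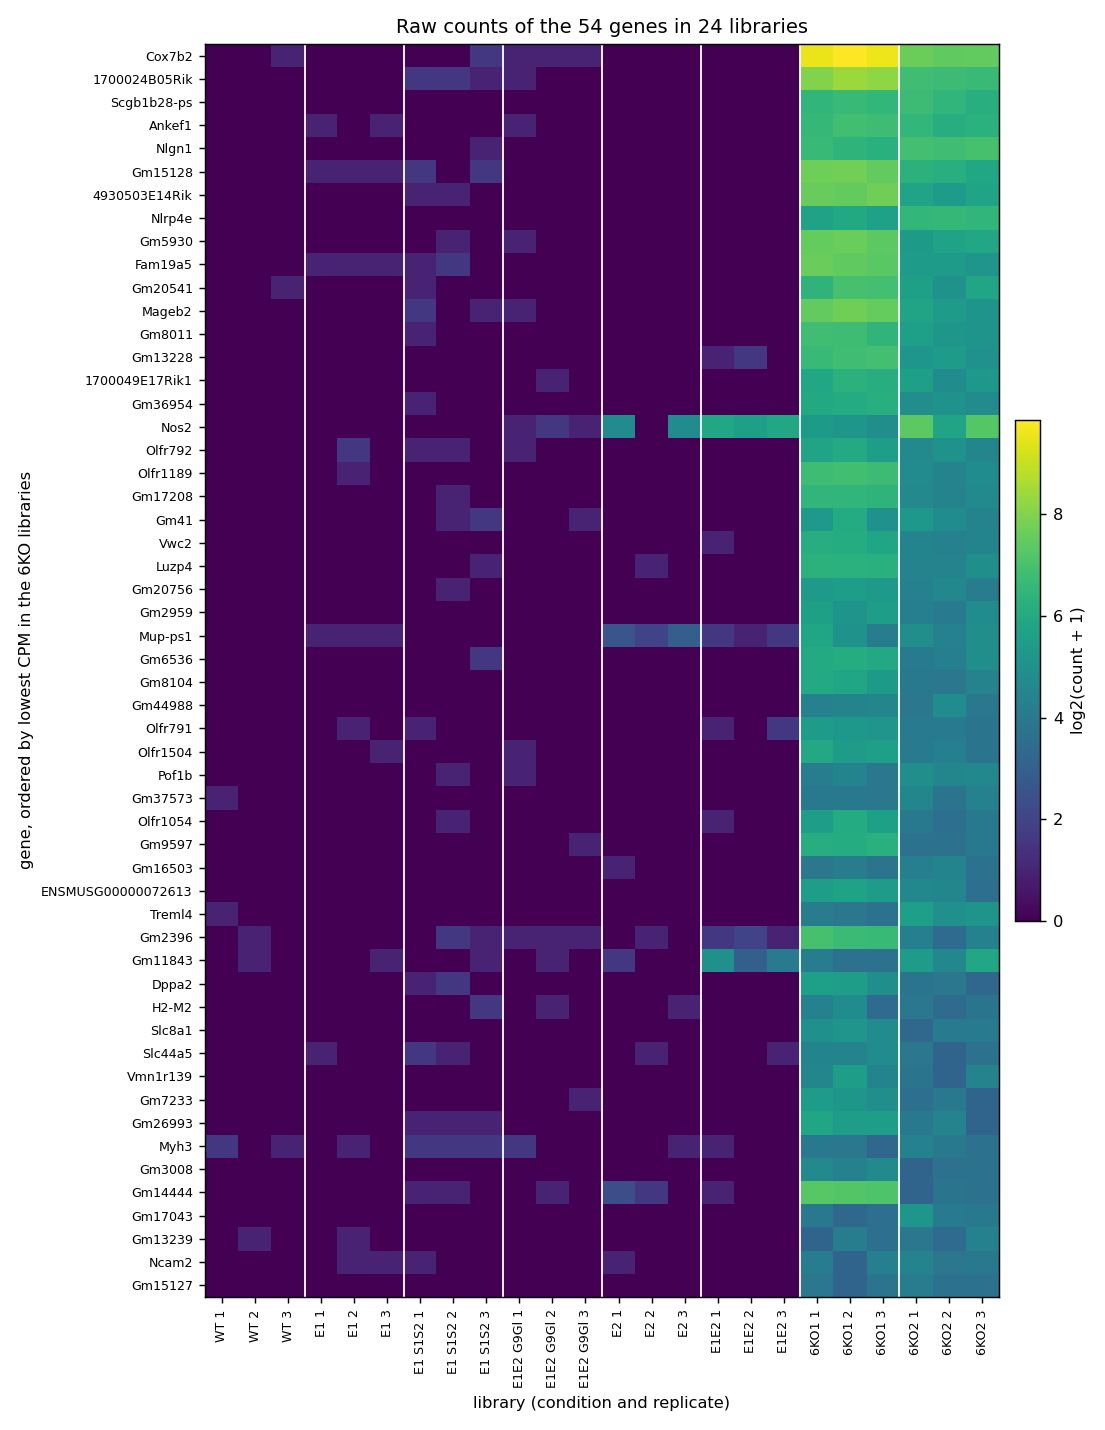
Raw counts of the 54 genes (y axis, ordered by the lowest CPM over the 6KO libraries) in each of the 24 libraries (x axis, 3 replicates per condition between white lines), coloured as log2(count + 1). The 6 columns of 6KO1 and 6KO2 stand out because the genes were chosen for it. The 6 columns of E2 and E1E2 were not used in the choice, and there Nos2, Gm11843 and Mup-ps1 are the visible exceptions.

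Of the 54 genes, 34 are protein coding, 15 are pseudogenes, 4 are other RNAs and 1 (ENSMUSG00000072613) has no entry in the annotation used here. Protein-coding genes made up 64.2% of the annotated members, against 27.7% of all genes that met the low part and 34.7% of those among them with a count in any library. For pseudogenes the shares were 28.3%, 28.4% and 24.7%. Their median mean level was 1.85 CPM in 6KO1 and 0.923 CPM in 6KO2, and per kilobase of exon the median member lay at percentile 52.5 and 46.5 of the genes with a count in that line.

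At the lower edge of the selection, 9 members had a library with exactly 8 counts, among them Ncam2, Vmn1r139 and Gm14444, and 6 genes, among them the chemokine gene Ccl4, stayed outside with a lowest count of 7. At the upper edge, 14 members reached 2 counts in a low library. Another 15 genes stayed outside with a highest low count of 3, among them Cdh19 with 79 to 776 counts in the 6KO libraries and Abca13 with 34 to 389. Of the members, 14 had no count in any of the 12 low libraries. In E1 S1S2, whose libraries held 26888829 to 31489070 gene counts, 29 members had at least 1 count and the sum over the 54 genes was 19 to 21 per library. In E1E2 G9Gl, with 19541909 to 23470036 gene counts, 18 members had one. The sum was 3 to 4 in WT, 5 to 10 in E1 and 6 to 12 in E1E2 G9Gl, against 4230 to 4779 in 6KO1 and 1753 to 2093 in 6KO2.

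The first feature that the selection did not use is position. On chromosome 14, 12 members lie within 2.41 Mb, from 41924949 to 44338584, which is 22.6% of the annotated members against 4.16% of the genes that met the low part. Along this stretch they are 1700049E17Rik1, 1700024B05Rik, Gm2959, Gm8011, Gm3008, Gm6536, Gm8104, Gm7233, Gm9597, Gm17208, 4930503E14Rik and Gm5930, of which 7 are annotated as protein coding. On the X chromosome, Gm15128, Gm15127 and Luzp4 lie between 147765991 and 148924139. Gm13228 and Gm13239 lie within 500 kb of each other on chromosome 4, and the olfactory receptor genes Olfr791 and Olfr792 on chromosome 10. In all, 22 members had another member within 500 kb and 11 had one within 100 kb.

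The second is sequence. The longest transcripts of 29 members aligned to another annotated gene over at least 50% of their length with at least 90% identity (blastn), and for 14 of these the other gene was itself a member. All 12 members on chromosome 14 have such a relative, though those of Gm17208 are not members. Among the 12, 79 ordered pairs aligned over at least 50% of the first transcript, with no minimum of identity. Their identities were 88.8% to 98.6% (median 93.3%). Luzp4 was 98.7% identical to Gm15127 and 98.9% to Gm15128. How the authors' counting divided reads among such copies is not given in the sources used here, so the level of a single copy is uncertain. The other 24 members with a transcript, Treml4, Cox7b2, Ankef1 and Nlgn1 among them, had no such relative.

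The likeness extends upstream of the genes. The 250 bases before the start of 1700049E17Rik1 (chr14:41924699-41924948 of GRCm38.p6, plus strand) and those of 4930503E14Rik (chr14:44171372-44171621, minus strand) align over 203 bases with 99.5% identity although the genes lie at opposite ends of the cluster. For Gm15127 (chrX:148663354-148663603, plus strand) and Luzp4 (chrX:148882326-148882575, plus strand) the alignment covers 244 bases with 98.0% identity. The 2 pairs are shown so that the copies can be compared, Treml4 (chr17:48264045-48264294, plus strand) as the known example, and Cox7b2 (chr5:71548206-71548455, minus strand) as the member with most reads. Each sequence and its start are taken from RefSeq, and the starts of 4930503E14Rik and Luzp4 lie inside the genes of the other annotation. Sequences read 5′ to 3′ on the strand of the gene, with capitals for CpG dinucleotides and for TATAAA on either strand.
1700049E17Rik1: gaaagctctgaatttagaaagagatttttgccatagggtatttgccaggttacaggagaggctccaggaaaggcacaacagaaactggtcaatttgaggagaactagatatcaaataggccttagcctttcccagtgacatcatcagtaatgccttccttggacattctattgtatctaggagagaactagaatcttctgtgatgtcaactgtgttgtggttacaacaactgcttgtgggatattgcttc
4930503E14Rik: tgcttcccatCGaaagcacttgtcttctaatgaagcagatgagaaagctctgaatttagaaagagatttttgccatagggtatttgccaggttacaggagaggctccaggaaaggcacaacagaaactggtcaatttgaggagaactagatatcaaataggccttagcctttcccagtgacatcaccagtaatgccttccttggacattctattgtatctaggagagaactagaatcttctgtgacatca
Gm15127: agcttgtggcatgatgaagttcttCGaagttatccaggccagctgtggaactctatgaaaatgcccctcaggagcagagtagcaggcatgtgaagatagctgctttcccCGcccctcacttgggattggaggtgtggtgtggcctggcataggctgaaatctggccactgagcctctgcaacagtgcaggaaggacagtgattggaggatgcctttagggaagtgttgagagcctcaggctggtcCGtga
Luzp4: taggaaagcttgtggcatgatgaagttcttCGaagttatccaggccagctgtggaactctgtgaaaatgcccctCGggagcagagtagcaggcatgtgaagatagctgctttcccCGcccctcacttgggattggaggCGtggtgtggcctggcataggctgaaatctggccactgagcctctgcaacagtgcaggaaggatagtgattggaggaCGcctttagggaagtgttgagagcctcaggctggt
Treml4: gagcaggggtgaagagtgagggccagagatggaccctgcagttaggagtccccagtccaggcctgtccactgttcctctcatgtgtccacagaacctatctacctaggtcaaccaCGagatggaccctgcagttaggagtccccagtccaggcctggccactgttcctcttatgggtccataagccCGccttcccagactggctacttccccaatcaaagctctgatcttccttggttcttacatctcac
Cox7b2: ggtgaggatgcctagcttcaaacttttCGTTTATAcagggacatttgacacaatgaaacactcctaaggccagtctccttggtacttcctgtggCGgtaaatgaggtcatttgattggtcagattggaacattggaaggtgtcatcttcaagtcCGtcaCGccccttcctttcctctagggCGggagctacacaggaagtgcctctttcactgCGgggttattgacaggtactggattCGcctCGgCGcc

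RefSeq promoters of 300 bases, 250 before and 50 after the start, were found for 25 members, 1 of them (Nlgn1) with 2 starts. CpG dinucleotides are the sites of DNA methylation in mammals, and promoters rich in them are mostly those of widely used genes. In these 300 bases Treml4 has 2, 1700049E17Rik1 and 4930503E14Rik have 1 each, Gm15127 has 3, Luzp4 has 6 and Cox7b2 has 10. The median ratio of observed to expected CpG was 0.213 over the member promoters, 0.211 over 7748 promoters of other genes that met the low part, and 0.384 over all 32851 promoters. A ratio over 0.6 was found in 5 of the 26 member promoters (19.2%), namely those of Ankef1, Ncam2, Slc44a5, Vwc2 and 1 of Nlgn1, against 12.4% and 35.8%. The sequence TATAAA stood on either strand of 6 member promoters (23.1%), against 20.7% and 13.6%. Neither the E-box CACGTG nor the E2F-type sequence TTCCCGC stood on either strand of any of the 26. These letters stood in 4.61% and 2.04% of the promoters of other genes that met the low part and in 7.15% and 4.6% of all promoters. The median CpG ratio of the members was thus close to that of the other genes that met the low part.

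The clone E2, without and with 4-OHT, played no part in the selection, and its 6 libraries ask whether disruption of Eset2, or of both Eset genes, comes with reads of the members. For 39 of the 54 members all 6 libraries were at 0, and for 49 (90.7%) none exceeded 2 counts. Among the other genes that met the low part the share at or below 2 was 98.3%, and among those with a count in any library 96.1%. The 5 exceptions were Nos2, Gm11843, Mup-ps1, Gm2396 and Gm14444. Their reads are not confined to the lines without all 6 enzymes.

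Nos2, the inducible nitric oxide synthase of activated macrophages, was the clearest of them (chr11:78920787-78960254, plus strand). It had 26, 0 and 27 counts in E2, which by its labels received no 4-OHT, and 57, 46 and 59 counts in E1E2. In E1E2 G9Gl, the line made from this clone, it had 1, 2 and 1 counts, and in 6KO2 164, 53 and 151. WT, E1 and E1 S1S2 had none, and 6KO1 had 41, 36 and 28. E1E2 (2.21 ± 0.199 CPM, SD, n = 3) lay above E2 (0.830 ± 0.719 CPM) in every library, but the difference of 1.52 ± 0.56 (log2, SE) did not pass edgeR's quasi-likelihood test (adjusted p = 0.0692). Without a filter on low counts the difference passed (adjusted p = 7.19e-08). E2 replicate 2, with no Nos2 count, is the library that stands apart in this group.

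Gm11843, a processed pseudogene on chromosome 4, had 2, 0 and 0 counts in E2, and E1E2 held 30, 7 and 16. E1E2 G9Gl held a single count, and 6KO2 had 43, 23 and 57. It was the 1 member called higher in E1E2 than in E2, with a log2 difference of 4.45 ± 0.82 (edgeR, adjusted p = 0.000346). Genes are called where the 2 groups differ by 1 or more on the log2 scale and the p adjusted over all genes tested does not exceed 0.01. Of all 18565 genes tested, 2.32% were called higher and 0.657% lower in E1E2. No member was called lower, none had an unadjusted p under 0.05 in that direction by edgeR or DESeq2, and 3 had one in the other direction by edgeR and 1 by DESeq2. The 39 members at 0 in all 6 libraries could not be called in either direction, so these numbers only describe the members. In a fit of only the 6 libraries Gm11843 did not pass the filter on low counts, and no member was called. The transcript of Gm11843 is up to 95.4% identical to Ube2v2, a gene for a ubiquitin-conjugating enzyme variant, and to 3 further pseudogenes.

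Mup-ps1, a pseudogene of the major urinary proteins, had 5, 3 and 7 counts in E2 and 2, 1 and 2 in E1E2. Gm2396 and Gm14444 reached at most 3 and 4 counts in the 6 libraries. In the 6KO libraries Mup-ps1 had 55, 32 and 17 counts and 28, 19 and 28. Among the protein-coding members 23 were at 0 in all 6 libraries of this clone, Treml4 and Cox7b2 included.

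Both 6KO lines lack the same enzymes, reached in a different order, and the selection put the same floor on each without using the difference between them. All 54 members could be tested. By edgeR, 26 were higher in 6KO1, where 9.77% of all genes tested were, and 4 were higher in 6KO2, where 7.1% of all genes were. The median log2 difference was 0.90 over the members and 0.019 over all genes. Applied to 1 line at a time, the selection gave 180 genes in 6KO1 and 100 in 6KO2. The 54 members were 30% of the first list and 54% of the second.

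**Figure D2:**
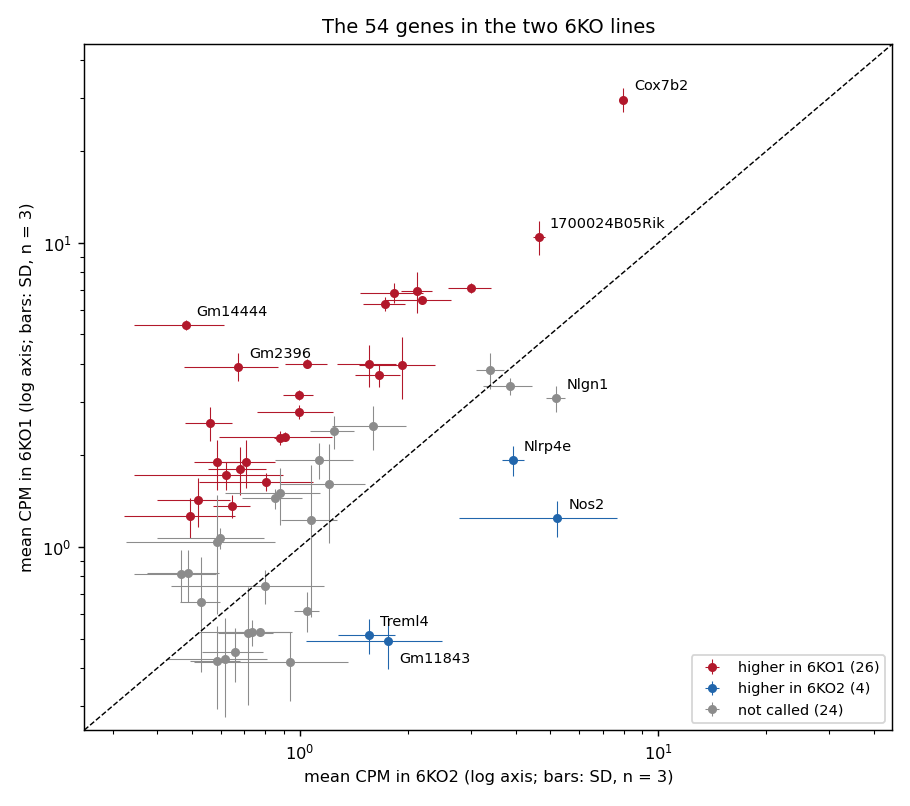
Mean CPM of each of the 54 genes in 6KO2 (x axis) and 6KO1 (y axis), both on log axes, with error bars for the SD of 3 libraries and a dashed line of equal levels. Of the points, 26 (red) were called higher in 6KO1, 4 (blue) higher in 6KO2 and 24 (grey) were not called, and Cox7b2 is the highest in both lines.

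Gm14444 on chromosome 2 differed most. It had 158, 149 and 141 counts in 6KO1 and 8, 13 and 12 in 6KO2, a log2 difference of 3.48 ± 0.26 (edgeR, adjusted p = 8.64e-10). Its transcript is 99.9% identical to Gm14406. Gm2396, an RNA without a coding sequence, followed with 126, 104 and 98 counts against 18, 10 and 19 (2.53 ± 0.22, adjusted p = 4.44e-09). Cox7b2 was 1.89 ± 0.13 higher in 6KO1 (29.6 ± 2.73 against 7.98 ± 0.206 CPM, adjusted p = 1.57e-09). In none of these did the libraries of the 2 lines overlap.

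Treml4 went the other way. It stood at 0.512 ± 0.0687 CPM in 6KO1 and 1.56 ± 0.282 CPM in 6KO2 (SD, n = 3), and no library of one line reached those of the other. The log2 difference was -1.60 ± 0.26 (edgeR, adjusted p = 0.000156). Nos2 (-2.06 ± 0.45, adjusted p = 0.000819), Gm11843 (-1.84 ± 0.38, adjusted p = 0.000203) and Nlrp4e (-1.02 ± 0.16, adjusted p = 0.000248) were the other 3 members higher in 6KO2. Nos2 was uneven there, with 53 counts in replicate 2 against 164 and 151, and DESeq2 gave it an adjusted p of 0.0590. Nlrp4e stayed under the fold change minimum without 6KO1 replicate 1 (-0.94) or without 6KO2 replicate 2 (-0.97). Nos2 and Gm11843 are also the members with more than 3 counts in a library of E1E2, from whose clone 6KO2 descends.

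On chromosome 14, 9 of the 12 members were higher in 6KO1, where 9.77% of all genes tested were. The log2 differences of all 12 ranged from 0.63 to 2.17. All 12 have a near copy and may share reads with it, so the 9 calls need not be separate observations. With DESeq2, Gm7233 was no longer called (adjusted p = 0.0563). Their summed counts were 1179 to 1255 in 6KO1 and 370 to 420 in 6KO2. They were 0 in every library of WT, E1, E2 and E1E2, 3 to 5 in E1 S1S2 and 1 to 2 in E1E2 G9Gl. 1700024B05Rik led the cluster with 257, 328 and 288 counts in 6KO1 and 114, 107 and 102 in 6KO2. Gm9597 differed most between the lines, with 69, 68 and 76 against 12, 12 and 15 counts (2.17 ± 0.24, edgeR, adjusted p = 4.1e-06). Of the 96 other genes of the table within it, 59 had no count in any library and 91 met the low part, of which 5 had a count in every 6KO library. The pseudogene Cdv3-ps lies 5.75 kb from Gm8104 and had 809 to 858 counts in WT and 420 to 685 in the 6KO libraries.

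**Figure D3:**
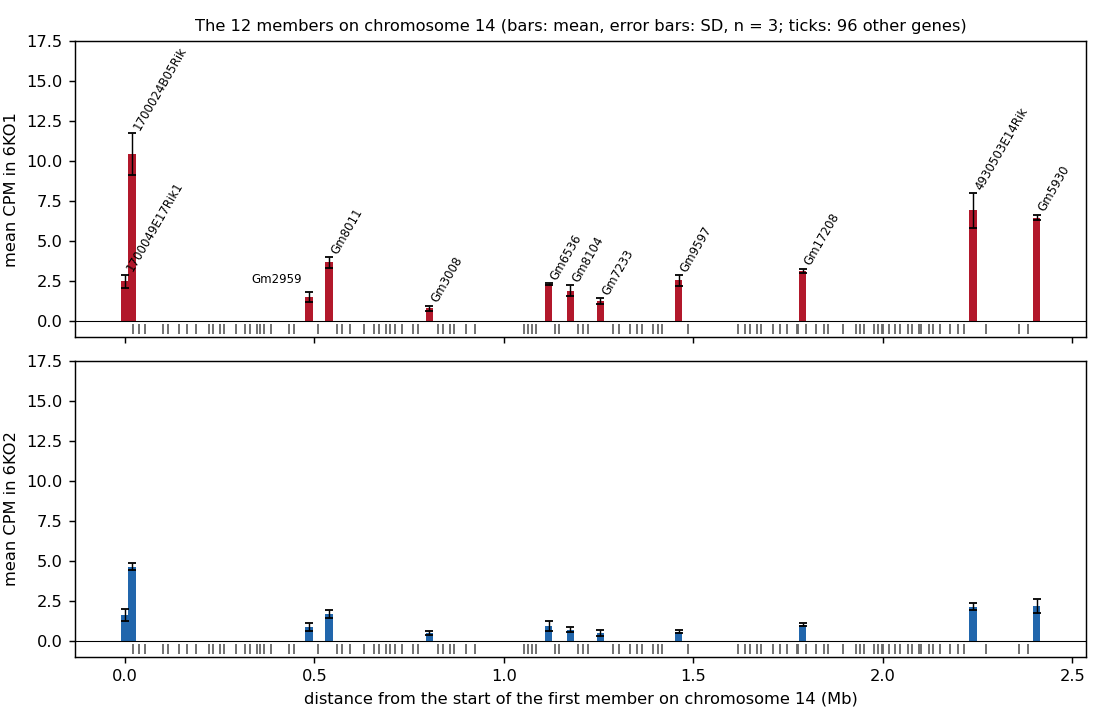
Mean CPM (y axis, bars from 0, error bars for the SD of 3 libraries) of the 12 members on chromosome 14 in 6KO1 (upper panel) and 6KO2 (lower panel) against the distance in Mb from the start of the first member (x axis). Grey ticks mark the starts of 96 other genes, and 1700024B05Rik is the highest bar in both panels, at 10.4 and 4.65 CPM.

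Some members are known from the germ line or the early embryo. Ankef1, which encodes an ankyrin repeat protein of the testis, had 93, 116 and 110 counts in 6KO1 and 91, 69 and 77 in 6KO2, a log2 difference of 0.17 ± 0.17 that was not called (edgeR, adjusted p = 0.416). Nlrp4e, an NLRP protein of the oocyte, had 50, 63 and 49 against 91, 94 and 88 and no count in the other 18 libraries. Mageb2, one of the MAGE genes that the testis and many tumours express, had 180, 210 and 182 against 53, 42 and 33 (1.89 ± 0.18, adjusted p = 3.87e-07). Dppa2, a DNA-binding protein of pluripotent cells, had 46, 45 and 29 against 13, 14 and 9 (1.46 ± 0.29, adjusted p = 0.000704, and 0.0228 by DESeq2). For Mageb2 and Dppa2 all libraries of 6KO1 lay above those of 6KO2, and for Nlrp4e all lay below.

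Of 12 germ cell markers, Tex14 alone passed the filter on low counts, and it stayed under the fold change minimum in both 6KO lines (log2 differences from WT of 0.85 ± 0.19 and 0.61 ± 0.20). The germ cell gene Ddx4 had 12, 11 and 8 counts in 6KO1 and 5, 4 and 3 in 6KO2. The summed level of the 12 was 1.14 to 1.52 CPM in WT, 2.74 to 3.27 in 6KO1 and 1.83 to 2.57 in 6KO2.

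Some relatives of these members, by name, had reads as well. Dppa4, which lies 9.67 kb from Dppa2 and encodes its partner protein, had no count in WT, 82 to 106 in 6KO1 and 14 to 16 in 6KO2, and was left out of the selection by 4 counts in an E1 S1S2 library. Dppa5a stood at 0.482 CPM in 6KO1 and 0.162 in 6KO2, with no count in WT. Mageb7-ps reached 2.84 and 3.83 CPM, with a highest count of 17 in E1E2 G9Gl. Nlrp4f stood at 0.0949 CPM in 6KO1 and 4.21 CPM in 6KO2, and Nlrp4g, with no count in 6KO1, at 1.21 CPM in 6KO2. The means of Nlrp4e, Nlrp4f and Nlrp4g thus all lay higher in 6KO2, while that of Nlrp1c-ps lay higher in 6KO1 (0.964 against 0.101 CPM).

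Receptors of the nose made up 6 members. The olfactory receptor gene Olfr1189 had 111, 117 and 107 counts in 6KO1 and 26, 20 and 27 in 6KO2 (log2 difference 1.93 ± 0.19, edgeR, adjusted p = 1.34e-06). Olfr792, Olfr1054, Olfr1504 and Olfr791 had 34 to 66 counts in 6KO1 and 11 to 32 in 6KO2. Vmn1r139, a pheromone receptor gene of the vomeronasal organ, had 22, 45 and 21 against 13, 8 and 20, which overlap once scaled to library size. In all, 4 of these 6 were called higher in 6KO1, where 9.77% of all genes tested were. Olfr792 and Vmn1r139 were not called, and Olfr791 lost its call with DESeq2 (adjusted p = 0.0546). Vmn1r139 aligned to 78 other genes, at up to 100% identity, and Olfr792 and Olfr1504 to 1 each. The levels of these single copies are uncertain.

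At least 8 counts in every 6KO library were found for 7 of 1060 olfactory receptor genes and 5 of 171 Vmn1r genes. Among relatives outside the 54 genes, 14 Olfr genes could be tested, of which 7 were higher than WT in 6KO1 and 5 in 6KO2. Of 8 testable Vmn1r genes these numbers were 7 and 6. Such genes pass the filter because of their reads in the mutants, so the counts only describe them. Vmn1r212 stood at 3.15 CPM in 6KO1 and 2.84 in 6KO2 and 0 in WT. Both lines are compared with the same WT libraries. Over all families, 46 of 1316 relatives could be tested, of which 25 were higher and 2 lower in 6KO1 and 20 were higher in 6KO2. Of all genes tested, 20.6% were higher and 10.2% lower in 6KO1, and 15.3% were higher in 6KO2.

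Among members with roles in nerve, muscle and transport, Nlgn1, the postsynaptic adhesion protein neuroligin, had 99, 84 and 76 counts in 6KO1 and 119, 114 and 126 in 6KO2. The log2 difference of -0.74 ± 0.16 had an adjusted p of 0.00114 in edgeR but stayed under the fold change minimum. Gm37573, annotated inside an intron of Nlgn1 on the same strand, had 13 to 22 counts, and its reads cannot be told apart from those of unspliced Nlgn1 RNA. Ncam2, an adhesion protein of olfactory neurons, had 17, 8 and 18 against 21, 14 and 15. Of 8 neuronal markers 4 were tested, and 2 were higher and 1 lower in 6KO1, against 4 higher in 6KO2. Snap25 and Stmn2 had at most 1 count in a WT library and passed the filter only through their reads in the mutants. Of all genes tested against WT, 20.6% were higher and 10.2% lower in 6KO1, and 15.3% were higher in 6KO2. The sum of the 8 markers was 27.1 to 33.3 CPM in WT, 20.5 to 24.3 in 6KO1 and 158 to 176 in 6KO2. Tubb3 made up most of it, with means of 28.7, 21.2 and 132 CPM, and Map2 stood at 0.447, 0.0962 and 29.3 CPM. Rbfox3 had at most 1 count in these libraries. In E1E2 and E1E2 G9Gl, where Nlgn1 had no count, the sum was 121 to 130 and 90.4 to 95.6 CPM. Tubb3 alone had means of 125 and 62.2 CPM there. The part of these markers in the reads of Nlgn1 was not tested.

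Fam19a5, a secreted chemokine-like protein of the brain, had 192, 176 and 159 counts in 6KO1 and 43, 43 and 34 in 6KO2 (1.86 ± 0.16, edgeR, adjusted p = 1e-07). Vwc2, a secreted antagonist of bone morphogenetic proteins, had 69, 67 and 56 against 21, 19 and 21 (1.38 ± 0.20, adjusted p = 6.06e-05). The libraries of the 2 lines did not overlap for either gene. Slc8a1, the sodium-calcium exchanger of heart muscle, Slc44a5, a choline transporter-like protein, and Myh3, the embryonic myosin heavy chain, had 8 to 34 counts in all 6KO libraries and were not called between the lines.

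On the X chromosome, Gm15128 had 204, 215 and 177 counts in 6KO1 and 80, 71 and 58 in 6KO2, and Luzp4, its near copy, 79, 77 and 76 against 20, 20 and 29. Both were called higher in 6KO1 (1.24 ± 0.15 and 1.48 ± 0.22, edgeR, adjusted p = 4.45e-06 and 3.13e-05). Gm15127, the third copy, had 8 to 17 counts and was not called. Pof1b, an actin-binding protein of epithelia, had 17, 21 and 14 against 28, 22 and 23, and Gm41, a pseudogene 91.4% identical to Mageb7-ps, had 39, 66 and 31 against 37, 27 and 20.

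Of the genes with roles in immunity, H2-M2, a non-classical class I histocompatibility gene, had 10 to 27 counts in the 6KO libraries. Of 7 genes of the receptor cluster around Treml4, 6 are in the table, and Treml4 alone passed the filter. Trem3, 5.45 kb from Treml4, had 18, 11 and 7 counts in 6KO2 (0.513 CPM), 1, 1 and 3 in 6KO1 and 0 in all other libraries, Trem2 had at most 4, and Trem1, Treml1 and Treml2 at most 1. Tyrobp and Hcst, the adaptors through which receptors of this family signal, had at most 1 count in WT, 6KO1 and 6KO2.

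Of 12 genes of Treml4 and Tlr7 signalling, 7 were tested, and 3 were higher than WT in each 6KO line. So were 3 in E1E2 G9Gl, 2 each in E1, E2 and E1E2, and 1 in E1 S1S2. Of all genes tested, 20.6% were higher in 6KO1 and 15.3% in 6KO2. Irf7, a transcription factor of the interferon response, had 18, 18 and 17 counts in WT, 2648, 2704 and 2443 in 6KO1 and 294, 146 and 303 in 6KO2. The log2 differences from WT were 7.06 ± 0.33 and 3.93 ± 0.37. Tlr7 itself had 5, 6 and 4 in WT, 116, 107 and 106 in 6KO1 and 9, 21 and 10 in 6KO2 (4.30 ± 0.31 and 1.54 ± 0.44). Syk, the kinase next to the adaptors, rose by 2.08 ± 0.06 in both lines (log2, edgeR, adjusted p = 6.69e-19 and 1.66e-18). Its mean was 8.75 CPM in WT, 7.70 in E1 S1S2 and 37.0 in both 6KO lines. It reached 21.5 CPM in E1, 27.3 in E2, 22.1 in E1E2 and 54.8 in E1E2 G9Gl. The counts of Tlr7 and Irf7 lay lower in 6KO2 than in 6KO1, and those of Treml4 lay higher. In E1E2 G9Gl, Tlr7 had 209 to 254 counts and Treml4 had none. The part of Treml4 in the levels of these genes was not tested.

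Treml4 and Nos2 belong to macrophages, so markers of these cells were read beside them. Of 12 myeloid markers 6 were tested, and 4 were higher in 6KO1 and 3 in 6KO2, against 20.6% and 15.3% of all genes tested. Of these, Ptprc, Lyz2 and Itgam had no count in WT and passed the filter only through their reads in the mutants. The calls thus only describe the markers. The summed level of the 12 myeloid markers was 6.78 to 7.75 CPM in WT, 25.8 to 28.6 in 6KO1 and 9.71 to 11.2 in 6KO2. It was 31.7 to 34.2 in E1E2 G9Gl, where Treml4 had no count. The macrophage marker Adgre1 had no count in WT, 6KO1 or 6KO2, Spi1 had at most 3, and Itgam had 59 to 75 in 6KO1 and 13 to 24 in 6KO2. Of epithelial markers 3 and 4 of 5 tested were higher in 6KO1 and 6KO2 and Epcam was lower in both, of endothelial markers 4 and 5 of 5 were higher, and 1 of 2 lymphoid markers was lower in both lines. The endothelial markers Cdh5, Tek and Vwf had at most 4 counts in a WT library and also passed the filter only through the mutants. Fibroblast markers were lower for 6 of 12 in 6KO1 and 2 of 12 in 6KO2, where Dcn was higher (5.46 against 1.43 CPM in WT). The part of these shifts in the reads of the 54 genes was not tested.

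The members that remain are mostly pseudogenes and RNAs without a known role. Scgb1b28-ps, a pseudogene of the androgen-binding protein family, had 90, 100 and 92 counts in 6KO1, 107, 88 and 73 in 6KO2 and 0 in all other libraries. Gm20541 (85 to 125 counts against 32 to 54), Gm13228 (99 to 121 against 31 to 42), Gm26993 (44 to 55 against 8 to 20) and ENSMUSG00000072613 (42 to 51 against 11 to 23) were higher in 6KO1. With DESeq2 the calls of Gm20541, Gm26993 and ENSMUSG00000072613 were lost (adjusted p of 0.0170 for Gm26993 and 0.104 for the last). Gm36954 (63 to 71 against 26 to 32) and Gm20756 (38 to 44 against 17 to 23) did not overlap either but missed the call. The members Gm44988, Gm13239, Gm17043 and Gm16503 had between 8 and 35 counts in each 6KO library and were not called, though Gm17043 was higher in 6KO2 in a fit without a filter on low counts (adjusted p = 0.00506). Gm17043 lies inside Serpina1b and Gm13239 inside Zfp980, each within an intron on the same strand. Zfp980 had no count in WT, 531 to 611 in 6KO1 and 305 to 350 in 6KO2. Serpina1b had 4 to 7 counts in 6KO1 and 8 to 12 in 6KO2. Reads of both members cannot be told apart from those of unspliced RNA of these genes.

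Genes whose bodies lie within 100 kb of a member without overlapping one were compared with WT. Of 295 such genes 57 could be tested. In 6KO1, 34 (59.6%) were higher than WT and 5 lower, against 20.6% and 10.2% of all genes tested. In 6KO2, 26 (45.6%) were higher and 0 lower, against 15.3% and 5.39%. By unadjusted p under 0.05, 12 neighbours were lower in 6KO2 with edgeR and 11 with DESeq2, which also called 0. All 26 were also higher in 6KO1, and both comparisons use the same WT libraries. Of the 26, 9 align to a member with at least 90% identity and may share reads with it. Without chromosome 14 the counts were 29 and 21 of 51.

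A gene near a member can pass the filter only through its reads in the mutants, and must then differ. Neighbours with at least 10 counts in every WT library do not have this problem. Of 27 such neighbours, 5 (18.5%) were higher in 6KO1 and 2 (7.41%) in 6KO2, where 10.8% and 6.85% of all genes with such WT counts were higher. As many of the 27, 5 (18.5%), were lower in 6KO1, against 12.1% of all such genes, and the median log2 difference of the 27 was -0.15 in 6KO1 and -0.18 in 6KO2. The 5 that were higher are Lgals9, Zfp979, Ksr1, Gm26624 and 9330159M07Rik, and Lgals9 and Zfp979 were higher in both lines. Among neighbours that met the low part, whatever the filter, 18 of 240 (7.5%) had a count in every 6KO library, against 1.54% of 24622 other such genes. Off chromosome 14 it was 14 of 184 (7.61%). Of the 18, 5 align to a member.

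**Figure D4:**
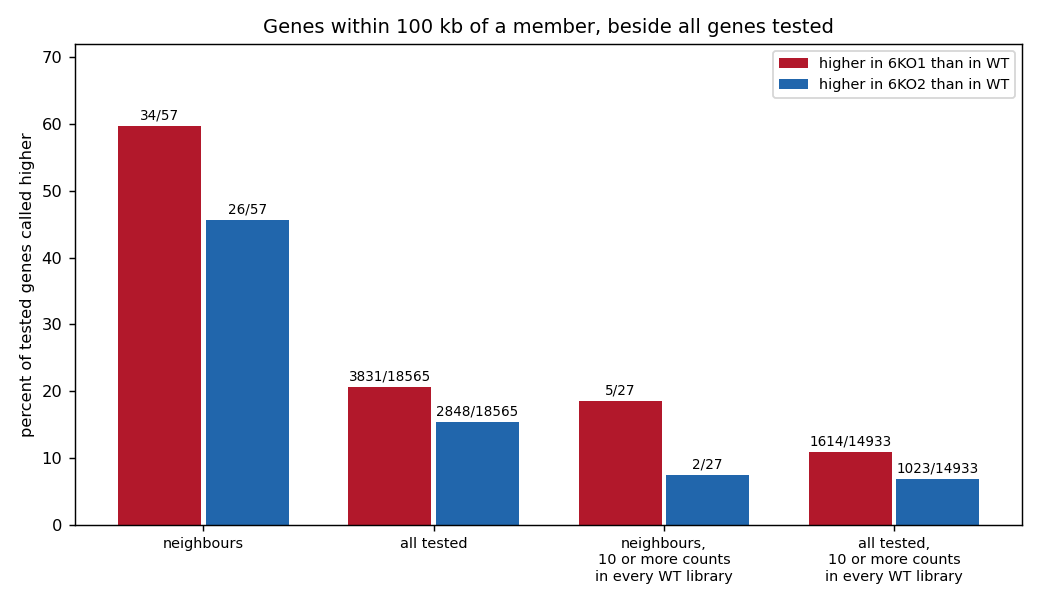
Percent of tested genes called higher than WT (y axis, bars from 0) in 6KO1 (red) and 6KO2 (blue), for genes within 100 kb of a member and for all genes tested, and the same for those with at least 10 counts in every WT library. Numbers over the bars give the genes called and tested, and among genes with WT counts the shares are 18.5% and 7.41% near members against 10.8% and 6.85% of all. Lower calls are not drawn, and in 6KO1 they too make up 18.5% of these 27 neighbours.

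Near Cox7b2, the GABA receptor gene Gabra4 had no count in WT, 47 to 75 in 6KO1 and 37 to 47 in 6KO2, and missed the selection by a single library with 3 counts. Zfp985, Zfp990 and Zfp982 lie within 35.3 kb of Gm16503 or Gm13228 on chromosome 4. Zfp985 had no count in WT, 1827 to 2000 in 6KO1 and 574 to 799 in 6KO2. In the 12 low libraries, the highest counts were 20 for Zfp985, 8 for Zfp990 and 27 for Zfp982. Next to Nos2, 2.72 kb away, lies Lgals9, the gene of the lectin galectin-9. It had 173 to 307 counts in WT, 3396 to 3942 in 6KO1, 954 to 1278 in 6KO2 and up to 2596 in E1E2 G9Gl, where Nos2 had at most 2. Of the 26 neighbours called in both lines, 11 had at most 2 counts in every low library, 9 had a highest count of 3 to 10 and 6 of more.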

How the data were processed

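Stranded total RNA was sequenced as paired ends from 24 libraries, 3 for each of 8 conditions. Per the submitters' processing notes and the study's methods, the authors trimmed reads with cutadapt 1.8.1, aligned them to GRCm38 with STAR 2.5.2b and counted genes and repeats with TEtranscripts, and they deposited the raw counts. The strand setting of the counting and its division of reads among near-identical copies are not given in the sources used here. The treatment field is the same in all labels, so WT and E2 follow the titles. The repeats and 1 entry that names no gene (at most 0.00271% of a library) were left out.

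The members and gene lists were chosen with earlier results of these data known. Counts were tested with edgeR 4.0.16 (quasi-likelihood, TMM, filterByExpr by condition; with limma 3.58.1 under R 4.3.3). The fit held the 24 libraries together, each condition with its own mean, and p-values were adjusted over 18565 genes by the Benjamini-Hochberg method, and standard errors were derived from the effect and its F value. On simulated counts for 6KO1 against 6KO2, 186 of 200 changed genes (93%) were recovered among 17249, with 4 others called. That run was separate from the fit over 18565 genes. Recovery of differences as small as the members' median between the 6KO lines (log2 0.90) was not tested. DESeq2 1.42.0, other size factors, no filter, other limits of the selection, left-out libraries and a replicate block were alternatives. Replicates are labelled as biological, but each condition is 1 clone, so p-values measure only the spread between these samples. Positions come from GENCODE M21 and transcript likeness from blastn 2.17.0. The genes to name were Treml4, the 20 protein-coding and 10 other members with the highest minimum CPM in the 6KO libraries, the 5 largest differences in each direction between the 6KO lines, those called in E1E2, those nearest the limits, the genes around Treml4, and up to 10 neighbours and 10 relatives called in both 6KO lines, by the smaller fold. The other members and genes were named after their values were seen. Figures were drawn with matplotlib 3.10.9.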

Additional observations from a re-analysis of the deposited data

Results flagged for a closer look

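The difference between the 2 lines that lack all 6 enzymes passed edgeR's test for 26 members higher in 6KO1 and 4 higher in 6KO2. The selection set the same lower limit in both. These are 48.1% and 7.41% of the members, against 9.77% and 7.1% of all genes tested. The share higher in 6KO2 is thus close to that of all genes. Among the members higher in 6KO1, the log2 difference was 3.48 for Gm14444, 2.53 for Gm2396, 2.17 for Gm9597, 1.93 for Olfr1189 and 1.89 for Mageb2. Among those higher in 6KO2 it was -2.06 for Nos2, -1.84 for Gm11843, -1.60 for Treml4 and -1.02 for Nlrp4e. The clone, the order in which the genes were disrupted and the line itself cannot be told apart in this comparison.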

How the results depend on the processing

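The calls between the 6KO lines stayed within 1.5 times under every alternative run, and the other counts did not. The 54 members became 14 with no count allowed in the low libraries, 88 with up to 5 allowed, 84 with at least 5 counts in the 6KO libraries, 27 with at least 16, 180 in 6KO1 alone and 100 in 6KO2 alone, and leaving out 1 library gave 54 to 60. Between 6KO1 and 6KO2, leaving out 1 library gave 24 to 26 and 3 to 4 members, and DESeq2 gave 20 and 3. Between E1E2 and E2, higher members numbered 2 with no filter on low counts, 0 with only the 6 libraries compared and 1 to 1 without 1 library, and lower members 0 to 0. Neighbours higher than WT in 6KO1 and 6KO2 numbered 20 and 15 within 50 kb, 90 and 69 within 500 kb, 33 to 36 and 25 to 27 without 1 library, and 16 in 6KO2 with only the 6 libraries compared. Chosen after seeing the data, a minimum of 10 counts in every WT library left 5 and 2, and leaving out chromosome 14 left 29 and 21. Same-numbered samples did not deviate together (r from -0.0767 to 0.240), and with a replicate block the calls were 25 and 4, 1 and 0, and 34 and 24 for the 3 comparisons in this order. Low counts limit most members, whose lowest 6KO count had a median of 15.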
